A study of Mus musculus with 5 samples.

Results

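The genes described here were 9 markers of radial glia and astrocytes, namely Aqp4, S100b, Glul, Hopx, Gja1, Gjb6, Prom1, Mlc1 and Ttyh1, among 25415 genes measured by RNA-seq. They were chosen by name, all 9 were found in the files under 29 RefSeq transcripts, and the FPKM values (mapped fragments divided by transcript length and by the total of mapped fragments) of the transcripts of a gene were summed in each sample. Neural stem cells (NSCs) were primary cells from the cortex of mouse embryos, grown as a monolayer for 5 to 8 passages on poly-ornithine and laminin with EGF (20 ng/ml), bFGF (20 ng/ml), heparin and B27, and 2 replicates were sequenced. STO cells are a mouse SIM embryonic fibroblast line resistant to thioguanine and ouabain, cultured for more than 30 passages in medium with 10% FBS, and 3 replicates were sequenced. The strain given for both was C57BL/6, and no transgene or treatment is stated for either group. The cultures differed in medium, substrate and passage as well as in cell type, and these cannot be told apart. Nothing stated that replicates came from separate animals or cultures, so that p-values measure only the spread between these samples, which may be technical.

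Radial glia are the neural stem cells of the embryonic cortex. They divide along the ventricle, send a long process to the pial surface, give rise to neurons and later produce astrocytes, and many of their genes stay on in astrocytes. Astrocytes take up glutamate, buffer potassium, move water at the endfeet that wrap blood vessels, and are joined to each other by gap junctions. Prom1, Ttyh1 and Hopx are used as markers of the stem cell and radial glia side of this lineage, and Aqp4, Gjb6, S100b, Glul, Mlc1 and Gja1 as markers of astrocytes, although most of these are made by both.

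In NSCs the 9 markers spread over a wide range of levels. Glul was the highest with 170 ± 12.8 FPKM (SD, n = 2), followed by Mlc1 (82.7 ± 4.57), Hopx (73.5 ± 5.88) and Ttyh1 (61.5 ± 1.54). Gja1 (10.5 ± 0.565) and S100b (6.41 ± 0.646) were intermediate, and Prom1 (1.85 ± 0.0184), Aqp4 (1.72 ± 0.161) and Gjb6 (0.104 ± 0.126) were low. Mlc1 and Hopx, and likewise Prom1 and Aqp4, were neighbours in this order whose means lay within the sum of their SDs, while the other neighbours were further apart than that. By rank among all genes, Glul was 374th and Prom1 10621st in NSCs. In STO cells only Gja1 (26.6 ± 2.25 FPKM, SD, n = 3) and Glul (16.9 ± 1.13) were above 1 FPKM. S100b (0.129 ± 0.0749) and Ttyh1 (0.0931 ± 0.0366) followed and did not differ beyond their spread, Prom1 and Aqp4 were above 0 in 1 STO replicate each, and Hopx, Mlc1 and Gjb6 were listed at 0 in all 3. A value of 0 can also be a failed estimate in such files, but every transcript of the 9 genes had the status OK in every sample.

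**Figure D1:**
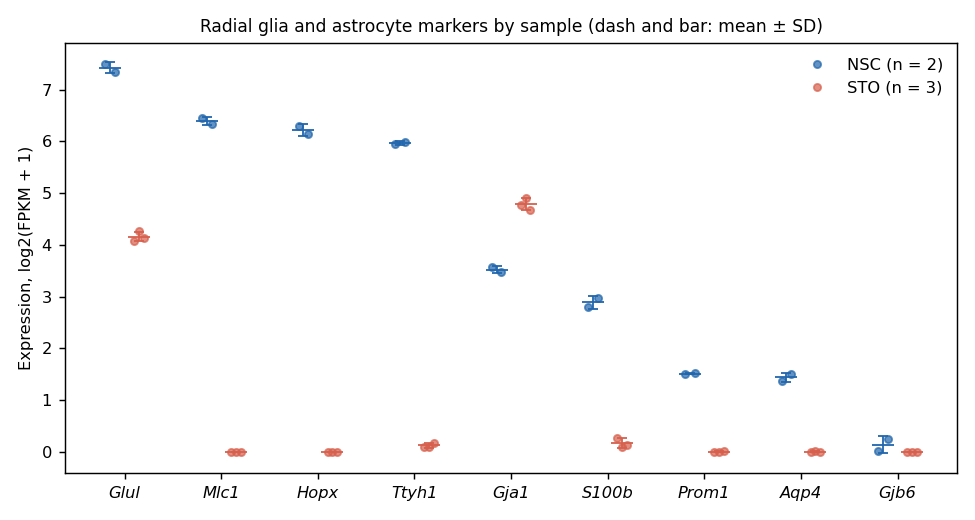
Expression of the 9 markers as log2(FPKM + 1) on the vertical axis, 1 point per sample, with the mean ± SD of NSCs (blue, n = 2) and STO cells (red, n = 3) beside the points. Glul, Mlc1, Hopx and Ttyh1 are the highest in NSCs, Gja1 is the only marker with STO cells above NSCs, and Hopx, Mlc1 and Gjb6 lie at 0 in STO cells.

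The markers were compared between NSCs and STO cells with limma on log2(FPKM + 1), fitted over the 12293 genes with a mean of at least 1 FPKM in NSCs or in STO cells. Of the 9 markers, 7 were higher in NSCs, 1 was lower and Gjb6 was not tested, since its mean was under 1 FPKM in both. The 7 and the 1 had an adjusted p-value under 0.05 and a difference of at least 1 on the log2 scale. Only Glul and Gja1 reached 1 FPKM in both cell types. Aqp4, S100b, Hopx, Prom1, Mlc1 and Ttyh1 entered the test through NSCs alone and so had to differ, and their count is a description. The background was broad as well, since 43.7% of the genes tested were higher and 41.9% lower in NSCs at an adjusted p under 0.05, and 21.3% were higher and 17.1% lower when a difference of at least 1 was also required. For a marker near 0 in STO cells, the difference in log2(FPKM + 1) restates its NSC level and depends on the 1 that is added. On this scale Mlc1, Hopx and Ttyh1 had the 48th, 53rd and 77th highest difference of all genes tested, and Prom1 and Aqp4 were 1683rd and 1763rd from the top. With 0.1 added in place of 1, the difference was 4.15 for Aqp4, 4.22 for Prom1, 4.87 for S100b, 8.33 for Ttyh1, 9.52 for Hopx and 9.69 for Mlc1, while Glul (3.33) and Gja1 (-1.33), which were expressed in both cell types, moved little. The ranks are therefore no order of fold change.

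**Figure D2:**
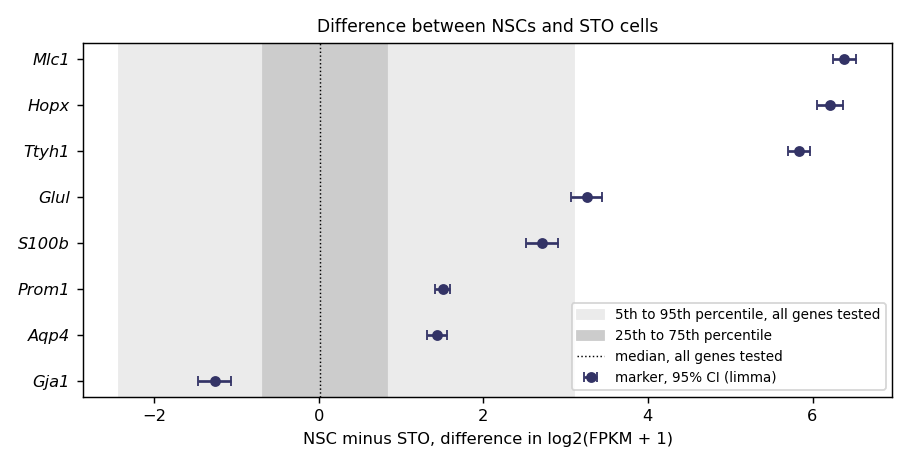
Difference between NSCs and STO cells in log2(FPKM + 1) on the horizontal axis for the 8 markers tested, with 95% confidence intervals from limma, drawn over the range of all 12293 genes tested (light grey, 5th to 95th percentile; dark grey, 25th to 75th percentile; dotted line, median). Mlc1, Hopx, Ttyh1 and Glul lie above the 95th percentile of 3.10, and Gja1 lies below 0 at -1.26.

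Membrane proteins of the radial glia and stem cell side were examined first. Ttyh1, which encodes a multi-pass membrane protein of the tweety family (chr7:4071132-4087009, plus strand, mm9), had 60.5 and 62.6 FPKM in NSC replicates 1 and 2 and 0.0689, 0.0752 and 0.135 FPKM in STO replicates 1, 2 and 3. The difference in log2(FPKM + 1) was 5.84 ± 0.0557 (SE; limma, adjusted p = 5.3e-09). Ttyh1 entered the test through NSCs alone and so had to be higher there, and its p-value is a description. The level came from 2 of the 4 RefSeq transcripts of the gene, which share 1 start site. NM_001109765 had 35.0 and 37.0 FPKM and NM_021324 had 25.4 and 25.6 FPKM in the NSC replicates, so that the former made up 57.9% and 59.1% of the sum. The split was thus nearly the same in both NSC replicates, and the other two transcripts were at 0 there. In STO cells the few fragments were assigned to NM_001109765 in replicates 1 and 2 and to the other two transcripts in replicate 3, and these values do not establish an isoform.

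Prom1 encodes prominin, a membrane glycoprotein of protrusions on the apical surface of neuroepithelial cells (chr5:44384861-44492975, minus strand, mm9). It had 1.84 and 1.87 FPKM in the NSC replicates and 0, 0 and 0.0156 FPKM in the STO replicates. The interval deposited with the last value, for NM_008935, ran from 0 to 0.0428 FPKM, so that it was not distinguishable from 0. The difference in log2(FPKM + 1) was 1.51 ± 0.0392 (SE; limma, adjusted p = 1.7e-07). Prom1 also entered the test through NSCs alone and had to be higher there. The gene total differed little between the NSC replicates, but its transcripts did. In replicate 2 all of it was assigned to NM_001163577, with 1.87 FPKM and an interval of 1.61 to 2.12 FPKM, whereas in replicate 1 this transcript had 1.25 FPKM (1.02 to 1.48) and NM_001163584 had 0.595 FPKM (0.422 to 0.768). The transcripts begin at different bases, 44492975 and 44486007 of chromosome 5. The upstream start thus carried 67.7% and 100% of Prom1 in the NSC replicates, and the downstream start 32.3% and 0%. In the GENCODE vM1 annotation the downstream base is the first base of a later exon in 4 Prom1 transcripts and the start of 2 others, so that fragments from it need not come from a separate promoter.

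The 250 bases before each start are shown because the transcripts of Prom1 divide between these starts; they were taken from RefSeq and located in mm9, read 5′ to 3′ on the minus strand, with CpG dinucleotides in capitals.
Prom1 upstream start, chr5:44492976-44493225: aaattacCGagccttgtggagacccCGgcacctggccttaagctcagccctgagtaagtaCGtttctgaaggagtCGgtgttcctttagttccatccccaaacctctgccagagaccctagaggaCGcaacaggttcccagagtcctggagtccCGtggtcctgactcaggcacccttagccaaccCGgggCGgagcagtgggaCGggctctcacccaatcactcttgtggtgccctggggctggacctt
Prom1 downstream start, chr5:44486008-44486257: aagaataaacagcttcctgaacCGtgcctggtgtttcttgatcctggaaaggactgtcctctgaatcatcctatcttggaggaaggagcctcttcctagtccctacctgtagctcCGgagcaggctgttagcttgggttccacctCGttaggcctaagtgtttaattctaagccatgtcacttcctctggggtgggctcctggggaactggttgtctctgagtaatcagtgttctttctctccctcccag
The upstream window held 9 CpG and the downstream window 3, against a median of 6 over 32851 mouse promoter windows of the same length. The downstream window ended in a run of pyrimidines followed by cag, letters that are also usual at the end of an intron.

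Hopx encodes a small homeodomain protein that does not bind DNA itself and marks radial glia, in particular those of the outer subventricular zone (chr5:77516011-77544148, minus strand, mm9). It had 77.7 and 69.3 FPKM in the NSC replicates and was listed at 0 in all 3 STO replicates. The difference in log2(FPKM + 1) was 6.22 ± 0.0641 (SE; limma, adjusted p = 5.8e-09), and no fold is given against a group at 0. Having entered the test through NSCs alone, Hopx had to be higher there. RefSeq places the start of NM_175606 at base 77544148 and that of NM_001159900 and NM_001159901 at base 77524292. All of the Hopx level in both NSC replicates came from the start at 77524292, and NM_175606 was at 0. Within this start, NM_001159900 took all 77.7 FPKM in replicate 1, and in replicate 2 it had 60.5 FPKM while NM_001159901 had 8.80 FPKM, or 12.7% of the gene. The interval deposited for the latter was 7.69 to 9.92 FPKM, so the replicates differed in this split by more than the interval, although their totals were alike. Cufflinks divides fragments shared by isoforms by a model, and these intervals do not cover errors of the transcript models.

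The windows before both Hopx starts are shown because NSCs used 1 of them, again with CpG in capitals and on the minus strand of mm9.
Hopx start without expression, chr5:77544149-77544398: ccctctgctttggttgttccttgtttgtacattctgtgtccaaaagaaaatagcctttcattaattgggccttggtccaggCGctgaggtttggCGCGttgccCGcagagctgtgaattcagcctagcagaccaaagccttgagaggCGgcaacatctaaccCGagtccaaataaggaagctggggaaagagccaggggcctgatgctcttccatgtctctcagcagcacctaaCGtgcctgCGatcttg
Hopx start with all NSC expression, chr5:77524293-77524542: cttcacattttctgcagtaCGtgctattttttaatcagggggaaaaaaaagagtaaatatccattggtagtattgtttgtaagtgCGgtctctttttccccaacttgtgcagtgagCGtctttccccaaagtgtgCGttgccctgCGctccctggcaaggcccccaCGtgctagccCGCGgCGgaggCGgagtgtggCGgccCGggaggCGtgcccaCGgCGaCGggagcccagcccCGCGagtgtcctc
The window before the start in use held 18 CpG, and 80.3% of all promoter windows held that many or fewer, while the other held 8. This is a description of letters, and methylation and binding at these windows were not measured.

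**Figure D3:**
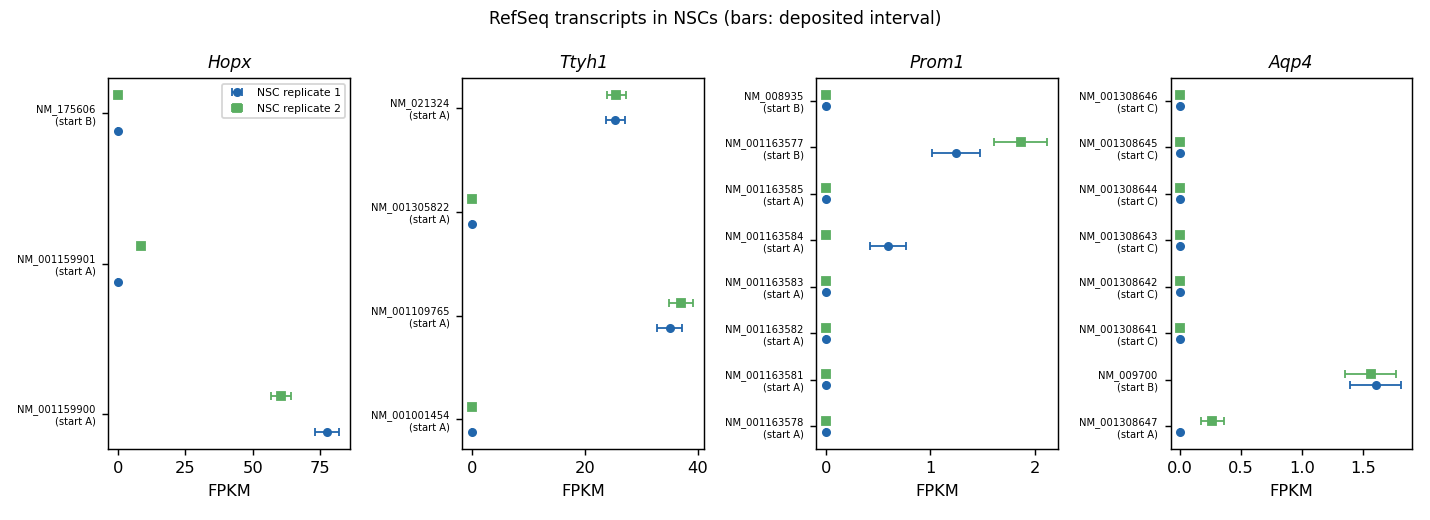
FPKM on the horizontal axis of each RefSeq transcript of Hopx, Ttyh1, Prom1 and Aqp4 in NSC replicate 1 (blue circles) and NSC replicate 2 (green squares), with the deposited intervals as bars; the letter after each transcript marks its start site, in order along the chromosome. Ttyh1 keeps the same split between NM_001109765 and NM_021324 in both replicates, whereas Hopx, Prom1 and Aqp4 each have 1 transcript above 0 in 1 replicate only.

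Among the astrocyte markers, the membrane proteins of the endfoot differed widely in level. Mlc1 encodes a membrane protein of astrocyte endfeet whose loss causes a leukoencephalopathy with large brain and cysts (chr15:88786314-88808983, minus strand, mm9). It had 85.9 and 79.5 FPKM in the NSC replicates, from its only transcript in the files, and was listed at 0 in every STO replicate. The difference in log2(FPKM + 1) of 6.39 ± 0.0564 (SE; limma, adjusted p = 5.1e-09) was the largest of the markers. Mlc1 entered the test through NSCs alone and so had to be higher there. The 250 bases before its start held no CpG, as in 7.9% of all promoter windows.

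Aqp4 encodes the main water channel of the brain, which is held at the endfoot by the dystrophin complex. It lies on chromosome 18 and had 1.60 and 1.83 FPKM in the NSC replicates, and 0, 0.0076 and 0 FPKM in the STO replicates. The interval of the STO value ran from 0 to 0.0291 FPKM. The difference in log2(FPKM + 1) was 1.44 ± 0.0499 (SE; limma, adjusted p = 6.5e-07). Aqp4 too entered the test through NSCs alone and had to be higher there. In NSCs nearly all of it came from NM_009700, with 1.60 and 1.57 FPKM, and NM_001308647 added 0.266 FPKM in replicate 2. The 6 transcripts that begin furthest upstream were at 0 in both NSC replicates. Mlc1 was thus far higher than Aqp4 in the same NSC libraries, on the FPKM scale, which divides by transcript length.

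Glul encodes glutamine synthetase, which turns the glutamate taken up by astrocytes into glutamine (chr1:155747059-155756853, plus strand, mm9). It had 179 and 161 FPKM in the NSC replicates and 16.0, 18.1 and 16.6 FPKM in the STO replicates. It was the only marker with a higher level in NSCs that was also well expressed in STO cells. The mean was 10.1-fold higher in NSCs, and the difference in log2(FPKM + 1) was 3.26 ± 0.0771 (SE; limma, adjusted p = 1.1e-07). S100b encodes a calcium-binding protein of astrocytes that is also made by oligodendrocyte precursors (chr10:75716581-75724064, plus strand, mm9). It had 5.95 and 6.87 FPKM in the NSC replicates and 0.214, 0.0699 and 0.105 FPKM in the STO replicates. Of the STO values, the interval reached 0 in replicate 2 only, with bounds of 0.0625 to 0.364 FPKM in replicate 1. The difference in log2(FPKM + 1) was 2.71 ± 0.0804 (SE; limma, adjusted p = 3.1e-07). Unlike Glul, S100b entered the test through NSCs alone and had to be higher there.

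The connexins Gja1 and Gjb6, which build the gap junctions of astrocytes, did not behave like the others. Gja1 (chr10:56097106-56110225, plus strand, mm9) had 10.9 and 10.1 FPKM in the NSC replicates and 26.1, 29.0 and 24.6 FPKM in the STO replicates, and every STO value was above every NSC value. It was 2.54-fold higher in STO cells by the means, and the difference in log2(FPKM + 1) was -1.26 ± 0.0812 (SE; limma, adjusted p = 1.3e-05). Gja1 is also the usual connexin of fibroblasts. Gjb6 (chr14:57742138-57752448, minus strand, mm9) had 0.0151 and 0.193 FPKM in the NSC replicates and was listed at 0 in all STO replicates. The deposited intervals were 0 to 0.0582 FPKM in NSC replicate 1 and 0.0846 to 0.301 FPKM in NSC replicate 2, so a low level was seen in only 1 NSC library. Without the filter on low values its difference in log2(FPKM + 1) was 0.14 (limma, adjusted p = 0.126).

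Of the other 21 connexin and pannexin genes, 4 reached 1 FPKM in a cell type, Gjc1 and Panx1 in both and Gja5 and Gjd2 in NSCs only, and they are given here because Gja1 was the exception among the markers. Panx1, Gja5 and Gjd2 were higher in NSCs and Gjc1 was lower, each by at least 1 on the log2 scale. By the same rule 21.3% of all genes tested were higher and 17.1% lower in NSCs. Gja5 (1.25 FPKM in NSCs) and Gjd2 (1.19 FPKM) were just above the filter and had to be higher there. Gjc1 had 4.79 ± 0.473 FPKM in NSCs (SD, n = 2) and 31.6 ± 1.39 FPKM in STO cells (SD, n = 3), the same direction as Gja1. Panx1 had 13.8 ± 0.0751 FPKM in NSCs and 2.83 ± 0.124 FPKM in STO cells. Gja1 was therefore the second highest of these genes in NSCs after Panx1, and in STO cells Gjc1 and Gja1 were the highest.

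The relatives of Aqp4, Ttyh1 and Prom1 were compared next. Of the other 11 aquaporins 4 were tested, of which Aqp11, which reached 1 FPKM in both cell types, was higher in NSCs, the direction of Aqp4. Aqp1, Aqp3 and Aqp5 were lower, and they entered the test through STO cells alone and so had to be lower in NSCs. Over all genes tested, 43.7% were higher and 41.9% lower in NSCs. Aqp1 had 13.4 ± 0.994 FPKM in STO cells (SD, n = 3) and 0.263 ± 0.0297 FPKM in NSCs (SD, n = 2), and Aqp11 had 3.46 ± 0.207 FPKM in NSCs, above the 1.72 FPKM of Aqp4. Ttyh3, the third tweety gene, had 384 ± 20.9 FPKM in NSCs and 60.0 ± 4.5 FPKM in STO cells and was thus above Ttyh1 in both, with the same direction of difference. Ttyh2 had 4.73 ± 0.229 FPKM in NSCs and 17.6 ± 0.973 FPKM in STO cells, and was called lower in NSCs. Prom2 was under 1 FPKM in both and was not tested.

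Proteins that hold or partner Aqp4, Mlc1 and the potassium channel of the endfoot were counted as a list of 15 genes, all of which were tested. Of these, 8 were higher and 6 lower in NSCs, against 43.7% and 41.9% of all genes tested. By at least 1, 7 were higher and 4 lower, against 21.3% and 17.1% of all genes tested. The median difference was 0.81, against 0.023 for all genes tested. In this list 8 genes reached 1 FPKM in both cell types, 6 in NSCs only and 1 in STO cells only. Hepacam, the adhesion protein that binds Mlc1, had 57.0 ± 1.89 FPKM in NSCs (SD, n = 2) and 0.0152 ± 0.00325 FPKM in STO cells (SD, n = 3). Kcnj10, the inward rectifier potassium channel, had 26.9 ± 1.67 FPKM in NSCs and was above 0 in 1 STO replicate. Atp1b2, a sodium pump subunit, had 165 ± 2.61 FPKM in NSCs and 0.444 ± 0.0321 FPKM in STO cells. Caveolin 1 (Cav1) went the other way, with 17.7 ± 1.47 FPKM in NSCs and 150 ± 6.01 FPKM in STO cells. Dag1, the dystroglycan that links the dystrophin complex to laminin, was the 1 gene not called, with 84.1 ± 4.12 FPKM in NSCs and 84.7 ± 4.1 FPKM in STO cells.

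Around Glul, 11 genes of the glutamate and glutamine cycle were measured and 9 were tested, with 7 higher and 2 lower in NSCs, against 43.7% and 41.9% of all genes tested. The test included 4 of the 9 through both cell types and 5 through NSCs alone, among them Slc38a3, Slc38a1 and Slc1a2, so that these 5 had to be higher. The neutral amino acid transporters Slc38a3 and Slc38a1 had 34.0 ± 0.609 and 25.6 ± 0.368 FPKM in NSCs (SD, n = 2) and 0.0272 and 0.00137 FPKM in STO cells. The glutamate transporter Slc1a2 had 30.5 ± 0.596 FPKM in NSCs and 0.0813 ± 0.0314 FPKM in STO cells. Glud1, glutamate dehydrogenase, had 183 ± 12.3 FPKM in NSCs and 99.9 ± 1.49 FPKM in STO cells, a smaller difference of 0.87 on the log2 scale. The glutamine transporter Slc38a2 was lower in NSCs, with 46.2 ± 2.92 FPKM in NSCs and 131 ± 7.48 FPKM in STO cells.

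Levels of markers that are not among the 9 were set beside the labels of the samples. Of 15 other radial glia genes 14 were tested, with 12 higher in NSCs and Il6st lower. Of 24 other astrocyte genes 23 were tested, with 19 higher and 3 lower in NSCs. Over all genes tested, 43.7% were higher and 41.9% lower. The medians of the difference were 2.51 for radial glia and 4.17 for astrocyte genes, against 0.023 for all genes tested. The astrocyte genes called lower were S1pr1 (6.60 ± 0.319 FPKM in NSCs, 28.7 ± 1.55 FPKM in STO cells), Mfge8 and Plpp3. Cst3 was not called. Nes, Sox2, Pax6 and Olig2, which the study used as NSC markers, were each higher in NSCs by at least 1 on the log2 scale. Through NSCs alone, 6 of the 14 radial glia genes and 14 of the 23 astrocyte genes entered the test, and so did Nes, Sox2, Pax6 and Olig2. These genes had to be higher there, so the counts and medians are a description and cannot check the labels. S1pr1, Mfge8, Plpp3 and Cst3 were among the 9 astrocyte genes that reached 1 FPKM in both cell types. Among the radial glia genes, Fabp7 had 2912 ± 183 FPKM in NSCs and was listed at 0 in STO cells, and Vim had 2125 ± 66 FPKM in NSCs and 1454 ± 38.4 FPKM in STO cells. The astrocyte gene Gfap had 15.9 and 16.9 FPKM in the NSC replicates and 0.0163, 0 and 0 FPKM in the STO replicates, so that it was present in NSCs kept in EGF and bFGF. The study named Gfap as a negative control in the RT-PCR of its cultured NSCs, a measure unlike FPKM. Acsbg1 (175 ± 2.25 FPKM) and Aldoc (152 ± 3.56 FPKM) were higher than Gfap in NSCs. In bulk RNA, fewer cells of a type and less RNA per cell cannot be told apart, so these levels do not say whether a part of the cells or all of them carried astrocyte transcripts.

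Some of the marker genes of other cell types were also present in NSCs. Of 6 oligodendrocyte genes 5 were tested, each through NSCs alone, and the summed level of the list was 153 to 154 FPKM in NSCs and 0.977 to 1.14 FPKM in STO cells, with Mbp at 85.8 ± 3.46 FPKM in NSCs (SD, n = 2). The 6 neuron genes summed to 17.6 to 19.2 FPKM in NSCs and 7.84 to 8.61 FPKM in STO cells, and Dcx, Snap25 and Syt1 entered the test through NSCs alone. Tubb3, the neuron gene that reached 1 FPKM in both cell types, had a difference of 0.06 (limma, adjusted p = 0.477). It had 8.69 FPKM in NSCs, a large part of the neuron sum, and 8.30 FPKM in STO cells. Rbfox3 (0.515 FPKM) and Stmn2 (0.0806 FPKM) were low in NSCs and were not tested. Foxj1, the factor of ciliated ependymal cells, had 7.24 ± 0.141 FPKM in NSCs and was the only gene of its 5-gene list to be tested, through NSCs alone. In NSCs Ccdc153 had 0.27 FPKM and Dnah5 0.0096 FPKM, while Tmem212 and Rarres2 were at 0 in every sample. The 6 microglia and 5 endothelial genes were under 1 FPKM in both cell types, and their sums were at most 0.4 and 0.534 FPKM. The fibroblast list entered the test with 6 of 7 genes, all through STO cells alone, and its sum was 0.961 to 1.32 FPKM in NSCs and 1159 to 1228 FPKM in STO cells. Whether oligodendrocyte, neuron or ependymal cells contributed to the levels of the 9 markers was not tested.

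**Figure D4:**
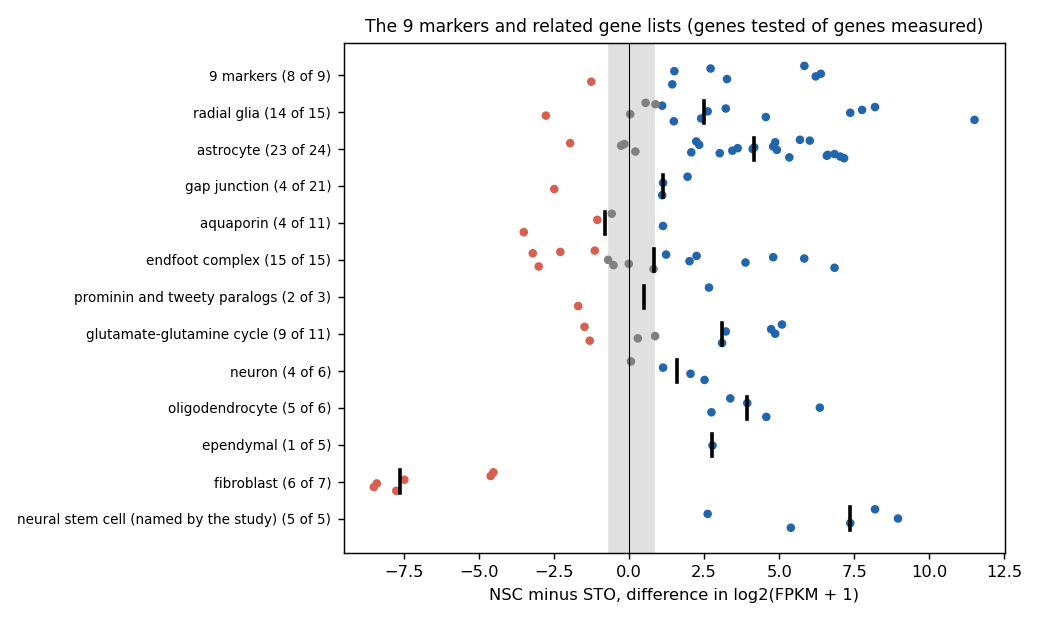
Difference between NSCs and STO cells in log2(FPKM + 1) on the horizontal axis for each gene tested of the 9 markers and of the related lists, with the number tested of the number measured in brackets. Blue points are higher and red points lower in NSCs with an adjusted p under 0.05 and a difference of at least 1, grey points are the others, black lines are list medians (not drawn for the 9 markers), and the grey band is the 25th to 75th percentile of all genes tested; the astrocyte and oligodendrocyte lists lie mostly to the right and the fibroblast list to the left.

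For each tested marker the 2 genes most like it over the 5 samples were taken as those with the smallest mean absolute difference in log2(FPKM + 1). Gatm, the first enzyme of creatine synthesis, was the nearest gene to both Mlc1 (0.0487) and Hopx (0.0267), with 76.6 and 75.1 FPKM in the NSC replicates and 0 in STO cells. The next were Egln3 for Mlc1 (0.0506) and Stmn3 for Hopx (0.0414). Slc25a18, a mitochondrial glutamate carrier, and Prkcb were nearest to Ttyh1, Plat and Lypla2 to Glul, Map6d1 and Zcchc18 to S100b, Eml2 and Lrrtm4 to Aqp4, Htr3a and Tmem163 to Prom1, and Chuk and Tnfaip2 to Gja1. Plat, the tissue plasminogen activator, was near Glul in level (0.0712), with 180 and 188 FPKM in the NSC replicates and 16.1 to 16.8 FPKM in the STO replicates. With 5 samples in 2 groups, this likeness is a matter of the level in each cell type.

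Letters of 5 motifs were searched on both strands in the 250 bases before the 10 start sites of the markers other than Aqp4. TATAAA was found in 0 of the 10 windows and in 12.4% of all 32851 promoter windows, CCAAT in 6 (33.8% of all), GGGCGG in 3 (32.7%), TTGGC, a motif of NFI factors, in 5 (41.5%), and ACAAT, a core of SOX sites, in 1 (27.7%). TTGGC and the reverse complement of CCAAT can overlap. A match is a description of letters and not a binding site.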

How the data were processed

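RNA-seq of 5 samples was used, grouped by cell type and replicate as in the labels. By the study's methods, the authors made stranded mRNA libraries, aligned the reads to mm9 with Hisat2 and quantified RefSeq transcripts with Cufflinks (version 2.2.1), and they deposited FPKM values with interval bounds for 40201 transcripts. Depth was divided out by the authors and no counts were used; the intervals, read as 2 SDs of a Poisson error, imply 15223341 to 22271895 fragments per sample. Replicates had a Pearson's r of 0.994 to 0.996 across the genes tested. Whether strand was used in quantification is not given in the sources used here; genes annotated on the opposite strand overlap S100b, Glul, Hopx, Prom1 and Ttyh1, and reads of the overlaps cannot be told apart without it.

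Symbols were matched through RefSeq accessions of a table for GRCm38.p6, used for names only (39946 transcripts matched), and transcripts of a symbol with overlapping loci were summed. Coordinates are mm9, 1-based. limma 3.58.1 in R 4.3.3 (eBayes with a trend, two-sided) was fitted to log2(FPKM + 1), which understates changes of low genes, for genes with a mean of at least 1 FPKM in a cell type, with Benjamini-Hochberg adjustment over all 12293, a threshold of 0.05 and, as a second rule, an absolute difference of at least 1. The fit was tested on simulated data. The 9 markers and the lists were chosen with earlier results of these data known. Genes named from a list are its 3 highest, the 3 with the largest called difference and the markers used by the study. Il6st, S1pr1, Mfge8, Rbfox3, Stmn2 and the list genes at 0 were named after their values were seen. Promoter windows are RefSeq sequences located in mm9; the promoter of Aqp4 is not shown. Hi-C and ChIP-seq were not analysed here. Python 3.11.15 and matplotlib 3.10.9 were used for the rest.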

Additional observations from a re-analysis of the deposited data

How the results depend on the processing

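With a pseudocount of 0.1, no filter on low values, quantile normalization, median scaling, no trend, the highest transcript of each gene, only transcripts with status OK, or each replicate left out in turn, the 8 tested markers kept their direction and their side of the threshold, and the counts of 7 higher and 1 lower did not change. Aqp4, S100b, Hopx, Prom1, Mlc1 and Ttyh1 passed the filter through NSCs alone, so their direction was fixed in advance. Only Glul and Gja1 were free to change direction. All transcripts of the markers had the status OK, so that setting could not alter their values. Over all genes tested, 43.7% were higher and 41.9% lower in NSCs. With a pseudocount of 0.1 the differences of the markers near 0 in STO cells were larger, at 9.69 for Mlc1, 9.52 for Hopx, 8.33 for Ttyh1, 4.87 for S100b, 4.22 for Prom1 and 4.15 for Aqp4. The lowest values came from quantile normalization for Mlc1 (6.29), S100b (2.31), Prom1 (1.11) and Aqp4 (1.02), and from the highest transcript for Hopx (6.12) and Ttyh1 (5.11). The settings gave 3.18 to 3.33 for Glul and -1.33 to -1.22 for Gja1. Leaving out a replicate gave -1.31 to -1.20 for Gja1 and 3.18 to 3.34 for Glul; where 1 NSC replicate was left, it was assumed to vary like the STO replicates. Gjb6 had a difference of 0.88 with a pseudocount of 0.1 and of 0.14 with 1. Over all genes, 4900 to 6559 were higher and 4704 to 5919 lower in NSCs across settings.

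Both cell types have replicates 1 and 2, and nothing in the labels pairs them. Deviations of NSC and STO libraries from their cell type's mean correlated at 0.0075 and 0.061 where the number was shared and at -0.061 to 0.050 where it was not. With 2 NSC replicates, their deviations are equal and opposite. The correlations of NSC replicate 2 thus repeat those of replicate 1 with the sign reversed, and they cannot decide whether replicates are paired. A replicate block in the fit left 5250 higher and 4994 lower genes, against 5375 and 5153 without it, and no call on the 8 tested markers changed. Depth limits the lowest values, and genes listed at 0 cannot be ordered.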
